A study of Homo sapiens with 3 samples.

Results

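RYR1 and CACNA1S, the 2 calcium channel genes that set off contraction in skeletal muscle, were described together with their paralogs RYR2, RYR3, CACNA1C and CACNA1D, 6 of 20037 protein-coding genes with a position on the chromosomes. The genes were chosen from the number of SOX4 and STAT6 peaks found along RYR1 and CACNA1S in earlier work on these same lists, so the counts at both genes are given as a description and were not tested. The peaks came from Hep3B cells, an established hepatocellular carcinoma line, for which the labels name neither a modification nor a treatment. One library was made with an antibody to SOX4 (abnova, PAB14092), one with an antibody to STAT6 (cell signaling, 5397S) and one with IgG, the non-specific antibody against which both lists were called. There were no replicates, the reads behind each list are unknown, and every comparison below is between these libraries.

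Contraction of skeletal muscle starts when the voltage sensor in the surface membrane, the L-type channel whose pore subunit is encoded by CACNA1S, opens the calcium release channel of the sarcoplasmic reticulum, encoded by RYR1. Inherited variants of both genes are known for malignant hyperthermia, a dangerous reaction to inhaled anaesthetics. RYR2 is the release channel of the heart, RYR3 is made in brain and other tissues, CACNA1C encodes the L-type channel of heart and smooth muscle, and CACNA1D that of neurons, endocrine cells and the cardiac pacemaker. Both SOX4 and STAT6 act as transcription factors, and the libraries were made to find genes bound by both. Expression of these channels in Hep3B was not analysed here.

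The contrast between the genes was visible at their start sites. The windows shown are the 250 bases before the RefSeq start (GRCh38.p14) of RYR1 at chr19:38433441-38433690 on the plus strand, of CACNA1S at chr1:201112427-201112676 on the minus strand, and of 1 paralog of each for contrast, RYR3 at chr15:33310717-33310966 and CACNA1D at chr3:53494361-53494610, both on the plus strand. Capitals mark the bases under a STAT6 peak. At RYR1 and CACNA1S the whole window also lay under a SOX4 peak, whereas the paralog windows lay under no peak of either list.
RYR1: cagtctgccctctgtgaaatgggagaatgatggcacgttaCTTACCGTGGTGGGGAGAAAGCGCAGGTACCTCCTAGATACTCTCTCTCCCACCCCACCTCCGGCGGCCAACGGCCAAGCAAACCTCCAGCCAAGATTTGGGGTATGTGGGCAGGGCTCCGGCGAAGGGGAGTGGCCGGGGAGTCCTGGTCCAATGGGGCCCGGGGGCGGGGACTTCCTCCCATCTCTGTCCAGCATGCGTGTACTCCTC
CACNA1S: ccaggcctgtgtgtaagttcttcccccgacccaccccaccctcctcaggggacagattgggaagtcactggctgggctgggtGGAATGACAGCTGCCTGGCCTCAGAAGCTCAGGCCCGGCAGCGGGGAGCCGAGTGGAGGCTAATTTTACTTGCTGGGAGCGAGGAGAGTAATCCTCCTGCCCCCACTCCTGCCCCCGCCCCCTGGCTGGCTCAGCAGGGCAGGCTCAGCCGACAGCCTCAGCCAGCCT
RYR3: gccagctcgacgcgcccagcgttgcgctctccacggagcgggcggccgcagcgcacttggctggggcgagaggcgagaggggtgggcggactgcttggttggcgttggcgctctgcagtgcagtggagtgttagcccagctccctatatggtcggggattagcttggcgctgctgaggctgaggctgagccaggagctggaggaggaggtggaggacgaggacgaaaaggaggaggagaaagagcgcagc
CACNA1D: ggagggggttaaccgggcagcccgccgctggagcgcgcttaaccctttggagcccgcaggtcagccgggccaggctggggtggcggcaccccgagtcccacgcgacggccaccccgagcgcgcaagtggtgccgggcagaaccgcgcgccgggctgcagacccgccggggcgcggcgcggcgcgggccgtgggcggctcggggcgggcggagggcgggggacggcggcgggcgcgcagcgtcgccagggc

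STAT6 peaks covered 210 of the 250 bases at RYR1 and 168 of the 250 at CACNA1S. The windows of RYR2 and CACNA1C were free of peaks as well. For CACNA1C the RefSeq start used lies 82.2 kb inside the gene as annotated. Of 22199 promoters of protein-coding genes, 0.698% lay under a SOX4 peak, 0.410% under a STAT6 peak and 0.396% under both. G and C made up 62.4% of the window at RYR1 and 65.6% at CACNA1S, less than the 66.8% at RYR3, 75.2% at RYR2, 81.6% at CACNA1D and 85.6% at CACNA1C. The letters AACAAAG and AACAAT, cores recognised by SOX proteins, and TTCNNNNGAA, the spaced palindrome of STAT6, were searched on both strands and occurred in none of the 6 windows. Of 35116 promoter windows of the same length, 4.50%, 8.98% and 5.38% held them.

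RYR1 on chromosome 19 (38433691 to 38587564, plus strand, 153.9 kb) overlapped 30 SOX4 and 54 STAT6 peaks, counting the 1000 bp on either side. This was the highest number among protein-coding genes in each list. CACNA1S on chromosome 1 (201039512 to 201112426, minus strand, 72.9 kb) overlapped 14 SOX4 and 27 STAT6 peaks. It ranked 8th by SOX4 peaks and, level with ZSCAN25, 3rd by STAT6 peaks. Across all protein-coding genes, 6.35% held a SOX4 peak, 1.08% a STAT6 peak and 1.03% a peak in both lists. RYR1 alone took 5.01% of all 1078 STAT6 peaks and 39.1% of the 138 on chromosome 19, and CACNA1S took 17.9% of the 151 on chromosome 1. Their shares of the SOX4 peaks of the same chromosomes were 14.1% of 213 and 3.72% of 376.

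Per length the 2 genes were alike. RYR1 carried 1.95 SOX4 and 3.51 STAT6 peaks per 10 kb, and CACNA1S carried 1.92 and 3.70. SOX4 peaks covered 65.3% of the body of RYR1 and 60.1% of CACNA1S, and STAT6 peaks covered 27.9% and 24.9%. No base of either gene lay under a STAT6 peak alone. No peak of either list lay in the 50 kb beyond the window on either side of these genes. The same was true of RYR2, RYR3, CACNA1C and CACNA1D, so empty flanks were not particular to the 2 genes. At RYR1 the next SOX4 peaks lay 1118.1 kb before and 234 kb after the gene, and the next STAT6 peaks 2749.8 kb before and 649.1 kb after. At CACNA1S they were 451.3 kb and 372.3 kb away for SOX4, and 13893.1 kb and 3905.5 kb away for STAT6, so that in both genes the run of peaks stopped close to the ends of the annotated gene. The reads of the 3 libraries, IgG included, were not analysed here, and whether all fragments under these peaks came from the chromatin of Hep3B was not tested. This limit applies to each count, coverage and fold enrichment given for RYR1 and CACNA1S. It applies equally to the other genes and to the whole lists set beside them.

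**Figure D1:**
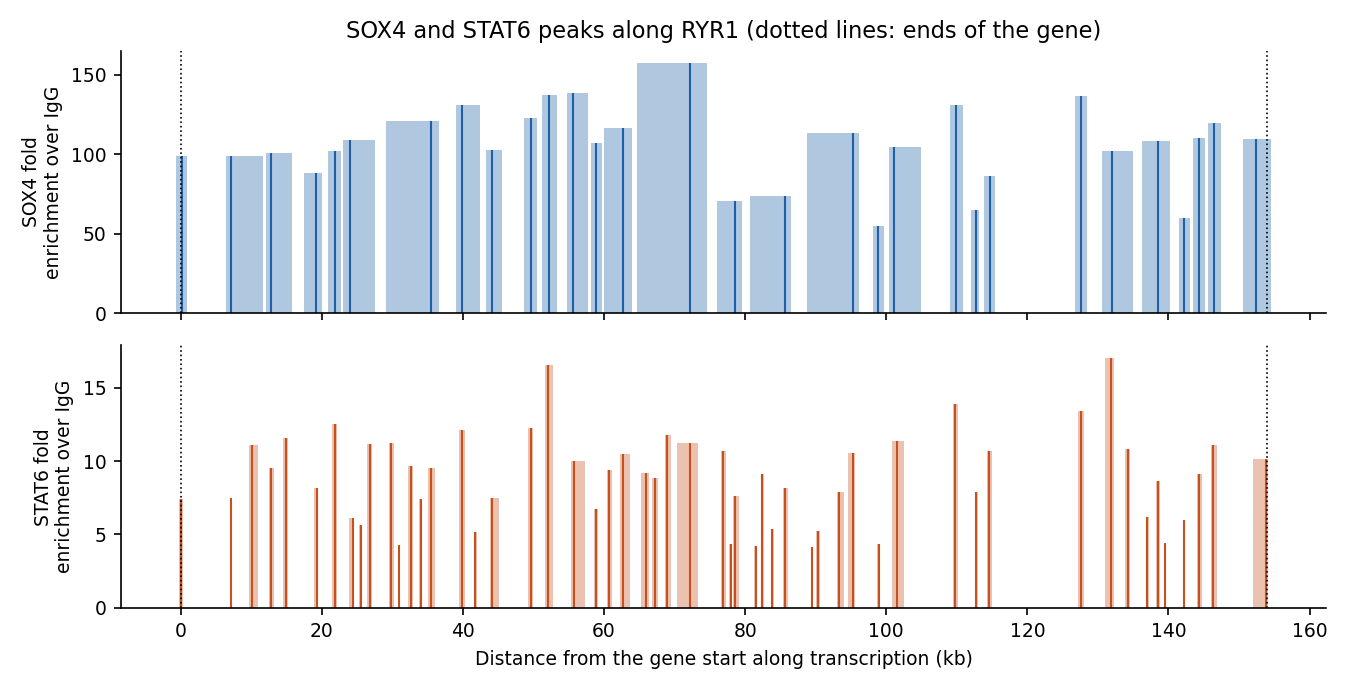
Fold enrichment over IgG of the 30 SOX4 (upper panel) and 54 STAT6 peaks (lower panel) against distance from the start of RYR1 in kb; each bar spans a peak, the line in it marks the summit, and dotted lines mark the gene ends. Peaks run from one end of the gene to the other, with the longest gap from 115.5 to 126.7 kb between SOX4 peaks and from 115 to 127.2 kb between STAT6 peaks.

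Along RYR1 the first SOX4 peak (38433007 to 38434599, fold enrichment 99.1) had its summit 158 bp inside the gene, and the first STAT6 peak (38433481 to 38434031, 7.41-fold) had its summit 104 bp inside. The last SOX4 peak (38584317 to 38588278, 109-fold) and the last STAT6 peak (38585706 to 38587729, 10.1-fold) reached beyond the gene end into MAP4K1, a kinase gene on the opposite strand whose 3′ end lies at 38587641, so these peaks touch both annotations. One SOX4 and one STAT6 peak also overlapped LOC124904710, a long noncoding RNA gene annotated inside RYR1 on the opposite strand. Between the ends, consecutive SOX4 summits were a median of 4457 bp apart (range 1872 to 12896) and consecutive STAT6 summits 2398 bp (619 to 12965). The longest stretch under no peak measured 11.3 kb and lay between 115.5 and 126.7 kb from the start. The next 2 measured 5.43 kb, directly after the first SOX4 peak, and 4.02 kb, ending 109 kb from the start. Whether the peaks followed exons was not analysed here.

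SOX4 fold enrichment at RYR1 ranged from 54.7 to 157, with a median of 108, against a median of 5.88 over the whole list. At other protein-coding genes with a STAT6 peak, however, the median over 548 SOX4 peaks was 91.1, with quartiles of 64.3 and 126.5, so that the height at RYR1 lay within the middle range of such genes. All 30 peaks were at or above a fold of 50, a level reached by 586 of the 4513 SOX4 peaks. The highest were at 72.2 kb from the gene start (38498327 to 38508301, 157-fold, rank 53 of the list), at 55.6 kb (38488466 to 38491433, 139-fold, rank 107) and at 52.1 kb (38484867 to 38486953, 137-fold, rank 112). The first of these was also the widest SOX4 peak of the gene, at 9975 bp. The median width was 2774.5 bp in RYR1, 1673.5 bp at other protein-coding genes with a STAT6 peak and 891 bp in the list. All 3 of the highest peaks lay between 52.1 and 72.2 kb from the start of the 153.9 kb gene.

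STAT6 fold enrichment at RYR1 ranged from 4.12 to 17.0 with a median of 9.18. The whole STAT6 list had a median of 7.27, with quartiles of 4.26 and 11.1. The highest STAT6 peaks lay at 131.9 kb (38564658 to 38566006, 17.0-fold, rank 60 of the list), at 52.0 kb (38485256 to 38486462, 16.6-fold, rank 69) and at 109.8 kb (38543100 to 38543929, 13.9-fold, rank 147). The widest, at 3048 bp (38503967 to 38507014, 11.3-fold), lay within the widest SOX4 peak. The −log10 q values of the peaks ran from 524 to 1662 for SOX4 and from 3.07 to 55.5 for STAT6, and were not compared between lists.

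**Figure D2:**
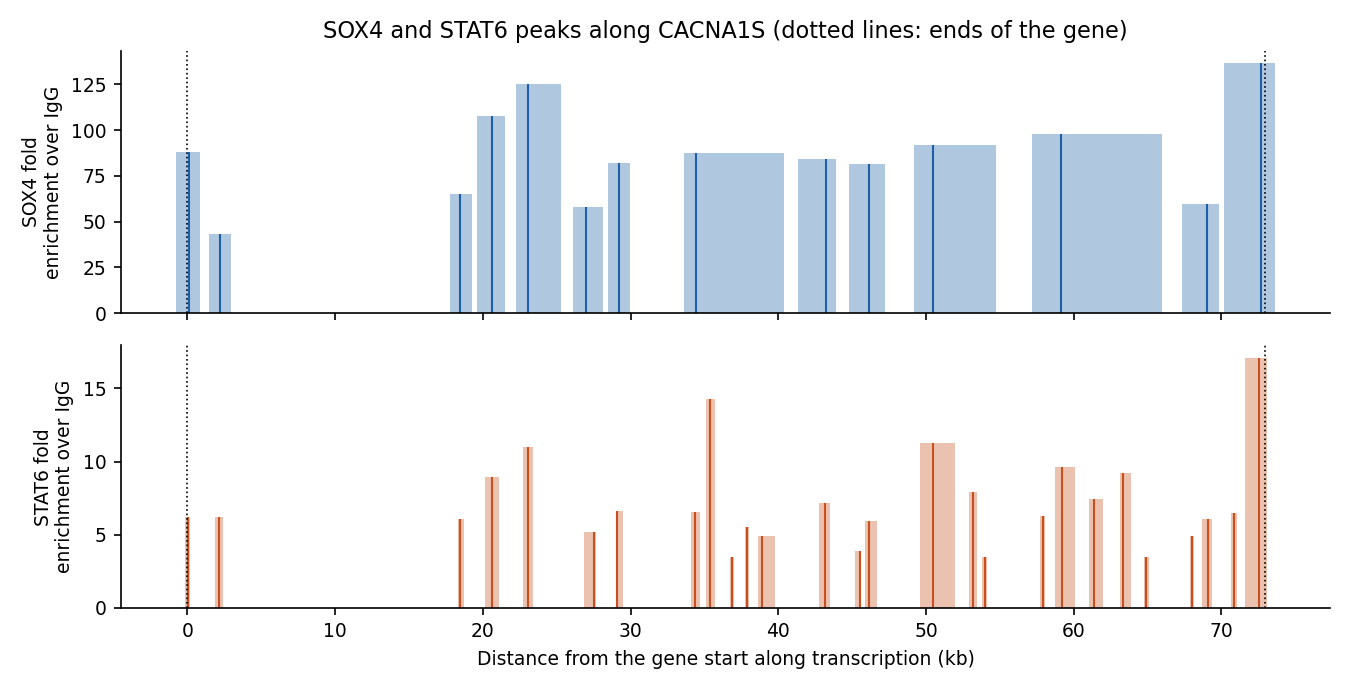
Fold enrichment over IgG of the 14 SOX4 (upper panel) and 27 STAT6 peaks (lower panel) against distance from the start of CACNA1S in kb, drawn as for RYR1. After the peaks at the start, both lists are empty from 2.94 to 17.8 kb, and the highest peak of each list lies at the far end.

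In CACNA1S the peaks were sparse near the start, beyond those at the start itself. The first SOX4 peak (201111611 to 201113196, 87.9-fold) and the first STAT6 peak (201112225 to 201112594, 6.21-fold) spanned the start of the gene. A second SOX4 peak (201109489 to 201110974) had the lowest fold enrichment of the gene, 43.3. It was followed by 14.8 kb under no peak, the longest such stretch, from 2.94 to 17.8 kb. The next longest measured 3.61 kb, from 29.98 to 33.58 kb, and 2.43 kb, from 54.7 to 57.2 kb. At the far end lay the highest SOX4 peak (201038814 to 201042284, 137-fold, rank 115 of the list) and the highest STAT6 peak (201039319 to 201040836, 17.1-fold, rank 58), which were also the last of their lists along the gene.

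The other high SOX4 peaks of CACNA1S lay at 23.1 kb (201087141 to 201090182, 126-fold) and at 20.6 kb (201090937 to 201092853, 108-fold). The widest, at 8800 bp, lay at 59.2 kb (201046474 to 201055273, 97.9-fold). SOX4 fold enrichment ranged from 43.3 to 137 with a median of 86.0, and 13 of the 14 peaks were at or above a fold of 50. For STAT6 the range was 3.44 to 17.1 with a median of 6.28. The next highest STAT6 peaks were at 35.4 kb (201076730 to 201077303, 14.3-fold, rank 132) and at 50.4 kb (201060482 to 201062849, 11.2-fold), the latter being the widest of the gene at 2368 bp. At other protein-coding genes with a STAT6 peak, 83.8% of 548 SOX4 peaks were likewise at or above a fold of 50. The STAT6 peaks of RYR1 and CACNA1S ranked from 58 to 869 of 1078.

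**Figure D3:**
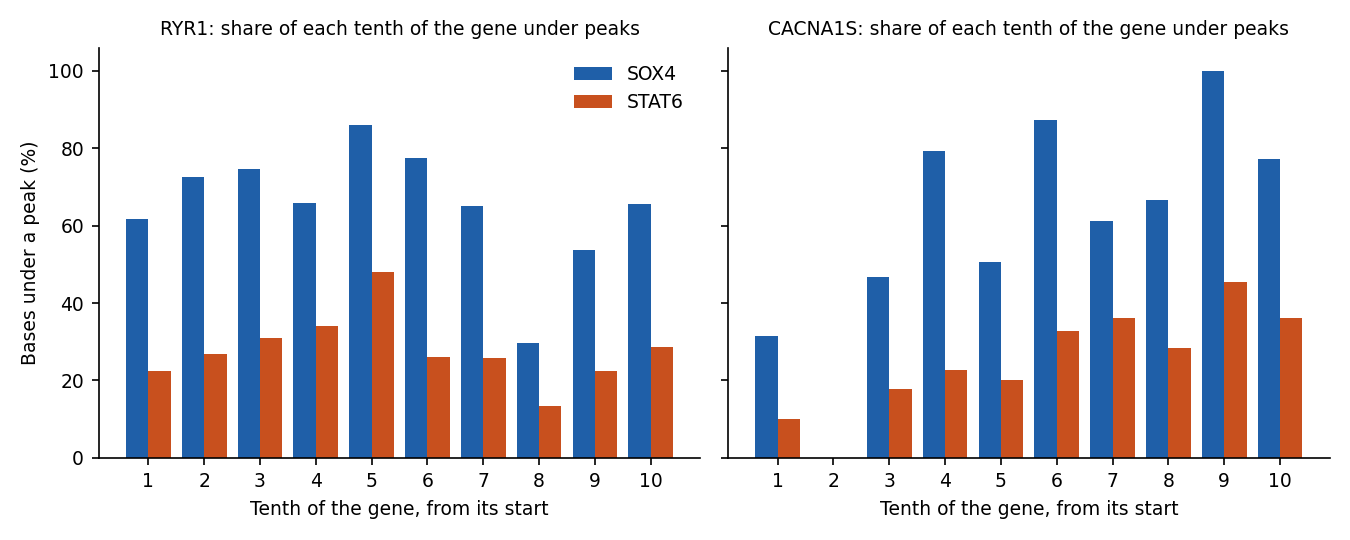
Percentage of bases under SOX4 (blue) and STAT6 (orange) peaks in each of 10 equal parts of RYR1 (left) and CACNA1S (right), numbered from the gene start. RYR1 is covered in all 10, with SOX4 highest in number 5 (86.2%), while number 2 of CACNA1S holds no peak and its number 9 lies wholly under SOX4 peaks.

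When each gene was divided into 10 equal parts from its start, SOX4 peaks covered from 29.8% of RYR1 in number 8 to 86.2% in number 5. STAT6 coverage had its lowest and highest values in the same places, at 13.3% and 48.0%. In CACNA1S number 1 was covered to 31.6% by SOX4 and 9.93% by STAT6, and number 2 held no peak. Number 9 was covered to 100% by SOX4 and to 45.5% by STAT6, the highest value of the gene in each list. The lists did not move together everywhere: from number 6 to number 7 of CACNA1S, SOX4 coverage went from 87.3% to 61.2% and STAT6 coverage from 32.8% to 36.1%.

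To see how the lists paired within the genes, the peaks were overlapped by at least 1 bp. All 54 STAT6 peaks of RYR1 overlapped a SOX4 peak (100%, Wilson 95% interval 93.4% to 100%), and so did all 27 of CACNA1S (100%, 87.5% to 100%). In the other direction, 30 of 30 SOX4 peaks of RYR1 (88.6% to 100%) and 14 of 14 of CACNA1S (78.5% to 100%) overlapped a STAT6 peak. These intervals cover counting error over peaks only, and they take peaks as independent, which neighbouring peaks of the same gene are not. Both genes were chosen from these same lists, so the shares are a description and were not tested. SOX4 peaks covered 65.3% of RYR1 and 60.1% of CACNA1S, so a STAT6 peak lying anywhere in these genes would often overlap one. Every one of the 81 STAT6 peaks was contained in a SOX4 peak from end to end. Overlap was also common elsewhere. Of the 997 STAT6 peaks outside these 2 genes, 76.9% overlapped a SOX4 peak and 74.7% were contained in one. Of the 4469 SOX4 peaks outside them, 13.3% overlapped a STAT6 peak.

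A single SOX4 peak could hold several STAT6 peaks. At RYR1, 18 SOX4 peaks held 1 STAT6 peak, 5 held 2, 3 held 3, 3 held 4 and 1 held 5. The one with 5 spanned 38462758 to 38470233, 7476 bp. At CACNA1S, 8 held 1, 3 held 2, 1 held 3 and 2 held 5, among them the widest. Wider SOX4 peaks held more STAT6 peaks, with a Spearman's rho across SOX4 peaks of 0.80 at RYR1 (n = 30) and 0.79 at CACNA1S (n = 14), given as a description. A wider stretch has more room for peaks, so a positive rho follows in part from width alone.

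The closest summits of the lists fell near each other, as they did elsewhere. Measured from each SOX4 summit to the closest STAT6 summit inside the same peak, the distance had a median of 47 bp at RYR1 (range 0 to 1356) and 57 bp at CACNA1S (1 to 504). It was at most 100 bp for 22 of 30 SOX4 peaks at RYR1 and 10 of 14 at CACNA1S. Over all overlapping pairs, and not only the closest, the median distance was 293.5 bp and 504 bp. For the 596 SOX4 peaks outside these genes that overlapped a STAT6 peak, the closest summit was a median of 40 bp away, and 74.0% were within 100 bp. In the peak from 38522421 to 38529806 of RYR1 the summits fell on the same base. The farthest lay in the last SOX4 peak of RYR1, where the only STAT6 summit was 1356 bp away, nearer the gene end.

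Ranked by fold enrichment in both lists within the gene, the first pair of CACNA1S joined the highest peak of each list, at the far end, with summits 110 bp apart. The next was at 23.1 kb (126-fold and 11-fold, summits 1 bp apart), and the one after it joined the same far-end SOX4 peak to a STAT6 peak of 6.50-fold. At RYR1 the first pair was at 52.1 kb (137-fold and 16.6-fold, summits 160 bp apart). The next 2 were both in the widest SOX4 peak, with STAT6 peaks of 11.8-fold and 11.3-fold. Across SOX4 peaks, the fold enrichment of SOX4 and the highest fold enrichment of STAT6 inside had a Pearson's r of 0.60 and a Spearman's rho of 0.55 at RYR1 (n = 30), and 0.75 and 0.79 at CACNA1S (n = 14). The highest of several STAT6 peaks tends to lie above a single one, so these values also carry the number of peaks inside. The points share a cell line and an IgG control, neighbouring peaks are not independent, and no p was computed.

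**Figure D4:**
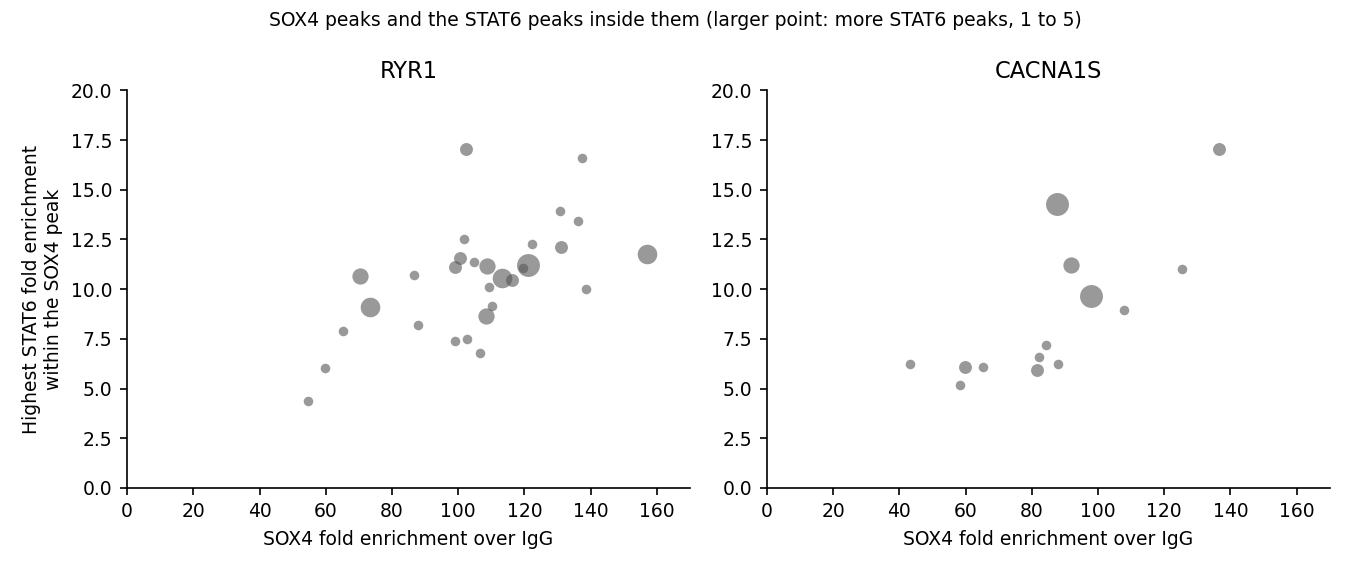
Each point is a SOX4 peak of RYR1 (left) or CACNA1S (right), placed by its fold enrichment over IgG and by the highest fold enrichment among the STAT6 peaks inside it; the point grows with the number of STAT6 peaks, from 1 to 5. The points tend upward with wide scatter in each gene, with SOX4 values from 54.7 to 157 and from 43.3 to 137.

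The paralogs differed from RYR1 and CACNA1S in both lists. None of the 4 held a STAT6 peak, and the nearest one was 3369.6 kb from RYR2, 7012.4 kb from RYR3, 3285.5 kb from CACNA1C and 7953.7 kb from CACNA1D. These nearest peaks had folds of 18.5, 4.11, 13.6 and 9.80. All 4 held SOX4 peaks, 19 in total, but these covered at most 1.51% of a gene. The paralogs are long, from 319.1 kb for CACNA1D to 791.8 kb for RYR2, so that RYR1 at 153.9 kb and CACNA1S at 72.9 kb are the shortest of their families here. Of the 1000 longest protein-coding genes, which include all 4 paralogs, 35.6% held a SOX4 peak and 1.30% held a STAT6 peak. Holding a SOX4 peak was therefore common for genes of their length, and holding no STAT6 peak was usual.

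**Figure D5:**
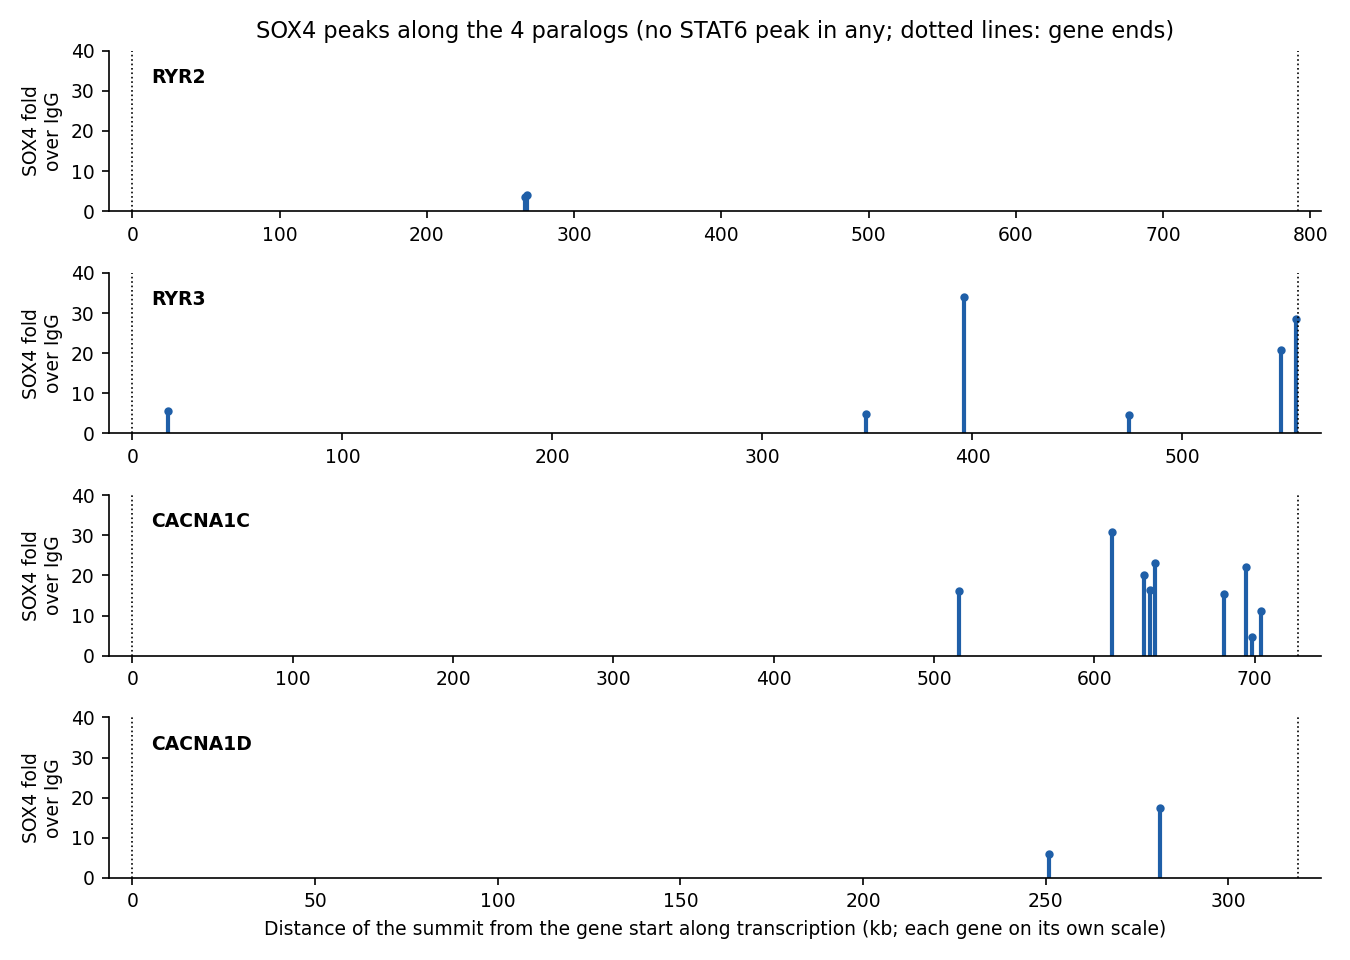
Fold enrichment over IgG of SOX4 peaks, at their summits, against distance from the gene start in kb for RYR2, RYR3, CACNA1C and CACNA1D; each gene has its own scale on the horizontal axis, and dotted lines mark gene ends. The 9 peaks of CACNA1C lie beyond 515.4 kb from its start, and no peak exceeds a fold of 34.0.

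CACNA1C on chromosome 12 (1970780 to 2697950, 727.2 kb) held 9 SOX4 peaks, the most among the paralogs, and all lay beyond 515.4 kb from its start, or 70.9% of its length. The highest was at 610.9 kb (2580997 to 2582278, 30.9-fold), and it was also the only one above a fold of 30. The next were at 637.9 kb (2607920 to 2609283, 22.98-fold) and at 694.8 kb (2664425 to 2666308, 22.0-fold), the latter being the widest at 1884 bp. The first along the gene (2485526 to 2486825) had a fold of 16.1 and the last (2674100 to 2675130) of 11.1. The lowest, 4.65-fold at 698.2 kb, also overlapped CACNA1C-AS2, an antisense RNA gene. The first 514.7 kb of the gene was under no peak.

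RYR3 on chromosome 15 (33310967 to 33866102, 555.1 kb) held 6 SOX4 peaks in 2 ranges of height. The highest lay at 396 kb (33706351 to 33707569, 34.0-fold), at 554.2 kb (33864521 to 33865845, 28.6-fold, the widest at 1325 bp and the last of the gene) and at 546.9 kb (33857261 to 33858497, 20.7-fold). The latter 2 also lay in AVEN, a gene on the opposite strand that overlaps the end of RYR3. The other 3 had folds of 4.58 to 5.48, with the first of the gene at 16.8 kb (33327393 to 33328073). A stretch of 331.9 kb between 17.1 and 349 kb held none.

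CACNA1D on chromosome 3 (53494611 to 53813733) held 2 SOX4 peaks, one at 251 kb (53745302 to 53745983, 5.83-fold) and one at 281.3 kb (53775306 to 53776368, 17.3-fold). RYR2 on chromosome 1 (237042184 to 237833988) also held 2, which lay close together at 266.6 kb (237308772 to 237309205, 3.54-fold) and 267.7 kb (237309602 to 237310076, 4.10-fold). The RYR2 peaks were among the lower ones of the list, at ranks 3653 and 3172.

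Although lower than at RYR1 and CACNA1S, the SOX4 peaks of the paralogs were not all low for genes without STAT6 peaks. Their median fold enrichment was 16.1 (range 3.54 to 34.0, n = 19), against 102 for the 44 SOX4 peaks of RYR1 and CACNA1S (43.3 to 157). These 2 ranges do not overlap, but the genes were chosen with their peaks known. Over all protein-coding genes the ranges did overlap. SOX4 folds ran from 2.54 to 264 at genes with a STAT6 peak and from 2.34 to 99.9 at genes without one. The value of 102 was near the median of 91.1 at other protein-coding genes with a STAT6 peak, where 95.3% of 548 SOX4 peaks had a fold of at least 15. At protein-coding genes that held no STAT6 peak, the median over 1216 SOX4 peaks was 5.54, with quartiles of 3.83 and 8.93. A fold of at least 15, a level set after the values were seen, was reached by 11 of the 19 paralog peaks and by 9.62% of these 1216. CACNA1C contributed 7 of the 11, RYR3 contributed 3 and CACNA1D 1.

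Other genes of calcium handling and of muscle held peaks at shares near those of all genes. Of 65 related genes, 6 held a SOX4 peak (9.23%, against 6.35% of protein-coding genes) and 1 a STAT6 peak (1.54%, against 1.08%). None held both, where 1.03% of all protein-coding genes did, so that 0 of 65 is near the share over all genes. Among 7 other pore subunits of voltage-gated calcium channels, CACNA1B held 2 SOX4 peaks (highest 7.29-fold), CACNA1E held 1 (8.94-fold) and CACNA1F held 1 (5.65-fold). Of 16 auxiliary subunits, CACNA2D3 (4.37-fold) and CACNB4 (3.78-fold) held 1 SOX4 peak each. Of the 3 inositol trisphosphate receptors, the closest relatives of the ryanodine receptors, ITPR2 held 1 SOX4 peak (12.6-fold).

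Of 20 partners in excitation-contraction coupling, among them STAC3, the calsequestrins CASQ1 and CASQ2, the junctophilins and the SERCA calcium pumps, none held a SOX4 peak. CALM2, one of the genes of the calcium sensor calmodulin, held the only STAT6 peak (3.28-fold). Of 19 genes of the contractile apparatus and of skeletal muscle identity, such as ACTA1, TTN, NEB, CKM and MYOD1, none held a peak in either list. Over all protein-coding genes 6.35% held a SOX4 peak and 1.08% a STAT6 peak. At those shares few or none would be found among 19 or 20 genes, so these counts show no particular absence.

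The genes most like RYR1 and CACNA1S in their number of STAT6 peaks were not muscle channels. ABCB1, a drug efflux pump, held 29 STAT6 and 22 SOX4 peaks. ZSCAN25, a zinc finger gene, held 27 and 16, and CFTR, a chloride channel, held 25 and 21. A peak was counted for every gene it overlapped, and whether those of ZSCAN25 also lay in other genes was not analysed here. F5, coagulation factor V, held 22 and 16, and TRPA1, a sensory channel, held 21 and 13. As at RYR1 and CACNA1S, each of these genes held more STAT6 than SOX4 peaks. They were picked for their STAT6 peaks, which favours this order. It did not hold throughout: DPYD, next by STAT6 peaks, held 17 STAT6 and 23 SOX4 peaks, while ABCG2 held 15 and 12. Likeness here is only the count of STAT6 peaks over 1 library.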

How the data were processed

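Per the labels, chromatin of Hep3B cells was prepared with a CUT&RUN kit for all 3 libraries. The study's methods describe digestion by pAG-MNase, a nuclease tethered to the antibody, and 150 bp paired-end sequencing for the SOX4 antibody. Partek Flow was the authors' software for the reads, and the submitters' processing notes add BWA and hg38. The caller's version and cutoffs, and how multiply mapping reads were treated, were not given in the sources used here. For each peak the authors deposited a fold enrichment over IgG (a ratio), a −log10 p and a −log10 q. A deposited score column, 10 times the −log10 q without its decimals, was not used. Peak names show that single libraries were called, each against IgG. A peak list for IgG was not analysed here, and read depth is unknown.

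Gene positions and promoter sequences came from RefSeq tables of GRCh38.p14, the same build. All 6 genes and all 65 related genes matched by symbol. A peak counted for a gene if at least 1 bp of it fell in the gene or within 1000 bp of its ends. Coverage is the share of bases of the gene body under a peak. Distances run from the gene's 5′ end to the summit, and positions are 1-based. With 1 library per antibody no test was run. Shares have Wilson 95% intervals, and fold enrichment was compared only within a list. Sequence at SOX4 summits, though planned, is not printed, because no genome was used here.

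Named were the 6 genes and, in each list, their 3 highest peaks, the widest, the first and the last, or the nearest peak where there was none. The 3 longest uncovered stretches, the 3 leading pairs by product of ranks and the 5 other genes with most STAT6 peaks were named too. DPYD and ABCG2 were added after their values were seen. Related genes were to be named with a peak in both lists, and as none had one, those with a peak in either list were named after their values were seen, as were the other single peaks described. The members and lists were chosen with earlier results of these data known. Overlap outside RYR1 and CACNA1S was computed after their values were seen. Alternatives changed the peak threshold, gene margin, merging and definition of overlap. The overlap, coverage and merging functions were tested on simulated data. Python 3.11.15, numpy 2.4.6, scipy 1.17.1, pandas 2.3.3 and matplotlib 3.10.9 were used.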

Additional observations from a re-analysis of the deposited data

How the results depend on the processing

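Of 56 alternatives run over 15 results, 51 changed a count or a coverage by less than a factor of 1.5, or left a share inside its interval. Sharing between the lists depended on its definition. With at least 50% of each peak required in the overlap, 7.41% of STAT6 peaks at RYR1 and 0% at CACNA1S were shared, in place of 100%. All STAT6 peaks lay wholly inside SOX4 peaks, so the requirement failed on the SOX4 side. With summits required within 200 bp, the shares were 50% and 48.1%. RYR2 kept 1 peak at a −log10 q of at least 5. STAT6 counts went down to 48 at RYR1 and 21 at CACNA1S, while SOX4 counts at these genes were the same under the 5 alternatives run for each. Protein-coding genes with a peak in both lists numbered 193 to 220. No paired analysis was possible because there was a single library for each antibody. Without replicates or read numbers, differences between the lists cannot be told apart from differences in depth.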

Other observations

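Some STAT6 peaks carried the same pair of values. Of the 81 STAT6 peaks at RYR1 and CACNA1S, 26 (32.1%) had exactly the same fold enrichment and −log10 q as at least 1 other STAT6 peak, and over the whole STAT6 list 455 of 1078 did (42.2%).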
